A study of Mus musculus with 23 samples.

Results

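The endosomal Toll-like receptors and their chaperone were followed in dendritic cells (DC) sorted from the spleens of wild type Balb/C mice. The 8 genes are Tlr3, Tlr7, Tlr8, Tlr9, Tlr11, Tlr12, Tlr13 and Unc93b1. They were found by symbol among the 47729 genes of the deposited table, all 8 were matched, and all 8 passed the filter on low counts. RNA of 4 sorted subsets was sequenced, which the labels name by gate as DC1a (CD8hi CD172-), DC1b (CD8Int CD172+), DC2 (CD8lo CD172hi) and DC3 (CD8- CD172lo). CD172 is the surface receptor SIRPa, encoded by Sirpa. Each subset came from 2 pools of untreated mice, which gave 8 libraries, and from 4 pools of mice labelled TLI, a treatment whose abbreviation is not spelled out there. TLI DC1a, DC1b and DC3 had 4 libraries each and TLI DC2 had 3, from pools 1, 3 and 4. All mice were of a single strain, the labels give no age, sex or number of mice per pool, and libraries that share a treatment and a pool number were taken as cells of the same mice. The untreated pools and TLI pools 1 and 2 carry batch 1 in the labels, TLI pools 3 and 4 carry batch 2, and the values given for a group follow the order of the pool numbers.

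Toll-like receptors of this group sit in the membranes of endosomes, where they meet nucleic acids or proteins of microbes that a cell has taken up. TLR3 binds double-stranded RNA, TLR7 and TLR8 bind RNA fragments and nucleosides, TLR9 binds unmethylated CpG DNA and mouse TLR13 binds a stretch of bacterial ribosomal RNA, while TLR11 and TLR12 recognize profilin, an actin-binding protein of Toxoplasma. UNC93B1 is a membrane protein that carries these receptors from the endoplasmic reticulum to endosomes. TLR3 signals through the adaptor TRIF and the others through MyD88, and CD8+ spleen DC are known for Tlr3 whereas plasmacytoid DC are known for Tlr7 and Tlr9.

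The deposited values are estimated counts, given here as CPM, the counts of a gene per 1000000 counts of its library. Totals ran from 19256447 to 36997890 counts, with medians of 25015091 in batch 1 and 34364086 in batch 2. A gene with 3 counts or fewer in a library was taken as at the floor, which lay between 0.0811 and 0.156 CPM and covers counting error only, since amplified reads are not independent molecules. In bulk libraries, fewer cells of a type and less RNA per cell cannot be told apart.

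The gates were checked against marker genes. Cd8a, the gene of the CD8 alpha chain, was at 468 and 450.3 CPM in untreated DC1a cells and at 155 and 390.0 CPM in untreated DC1b cells. It was under 1 CPM in untreated DC2 cells. Untreated DC3 cells had 0.410 and 41.6 CPM, so the library of pool 2 was high for its CD8- gate. The TLI DC3 libraries had 5.07, 6.46, 2.67 and 0.228 CPM. The TLI DC1b libraries had 302, 342, 79.0 and 0.327 CPM of Cd8a, so the library of pool 4 went against its CD8Int gate, and each call of the 8 genes that includes TLI DC1b cells is given below with and without it. Sirpa was at 146, 141, 5.10 and 6.55 CPM in the same TLI DC1b libraries, low in both of batch 2. The 8 DC1 markers summed to 2339 to 2549.5 CPM in untreated DC1a and 420.4 to 537 CPM in untreated DC2 cells, and the 8 DC2 markers to 25.9 to 26.1 and 1619.6 to 1712 CPM. DC1b and DC3 cells had sums between those of DC1a and DC2 cells for the DC1 list in untreated libraries. The 10 plasmacytoid DC markers summed to 6493 to 8893 CPM in untreated DC1b cells, with all 10 above the floor, and to no more than 354 CPM in any library of another group. Summed markers of monocytes and macrophages (10 genes) reached 7495 to 25703 CPM and those of neutrophils (6 genes) 1117 to 17928 CPM in TLI DC1b cells, compared with 398 to 1722 CPM and 5.87 to 9.38 CPM in TLI DC1a cells. In TLI DC2 cells these sums were 5556 to 13809.6 and 110.2 to 1952 CPM. Sirpa in TLI DC2 cells was at 36.7, 9.22 and 309 CPM, lowest in pool 3. The 4 erythroid markers took up to 82992 CPM in a TLI library, NK cell markers (5 genes) up to 2533 CPM in TLI DC3 cells, and T cell markers (5 genes) and B cell markers (6 genes) no more than 294 and 310.5 CPM in any library.

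**Figure D1:**
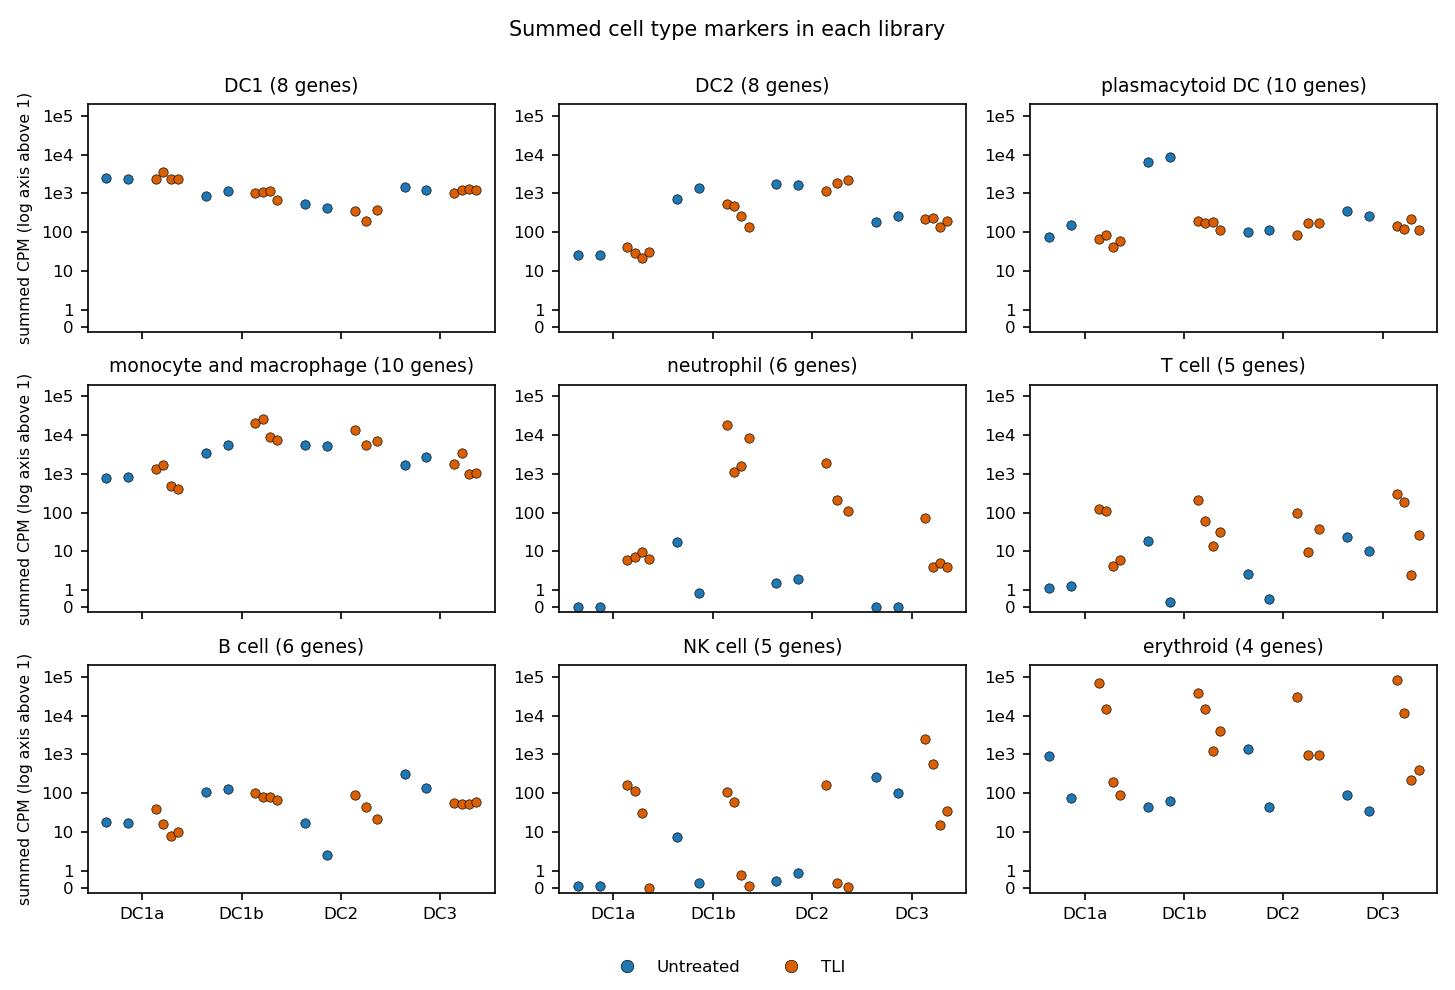
Each panel plots the summed CPM of a marker list (log axis above 1, linear below) in each of the 23 libraries, by subset, with untreated libraries in blue and TLI libraries in orange. The plasmacytoid DC list stands at 6493 to 8893 CPM in the 2 untreated DC1b libraries, above every other library.

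Compared per length of exons, the 7 receptors were present in different proportions in the 4 subsets. In DC1a cells Tlr3, Tlr11 and Tlr12 together made up 91.7% to 92.9% of the summed CPM per kb of the 7 receptors in untreated libraries and 91.1% to 93.1% in TLI libraries. DC3 cells had a like make-up, at 76.5% to 82.4% and 81.8% to 95.7%. The same 3 receptors held 2.69% to 16.7% in untreated and 13.2% to 15.5% in TLI DC2 cells, where Tlr7 and Tlr8 held 36.4% to 66.7% and 35.0% to 57.7%. Tlr13 took most of the rest of DC2 cells, at 30.1% to 46.9% in untreated and 29.0% to 51.1% in TLI libraries. Untreated DC1b cells resembled DC2 cells, with 63.6% to 65.9% from Tlr7 and Tlr8, while the TLI DC1b libraries spread widely, from 18.3% to 66.6%. Without pool 4 the TLI DC1b range for Tlr7 and Tlr8 ended at 39.9%. In DC1a and DC3 cells Tlr7 and Tlr8 stayed at or below 6.51%. In CPM per kb, Tlr11 averaged 40.0 and Tlr3 27.1 in untreated DC1a cells and Tlr7 averaged 36.5 in untreated DC1b cells, with Tlr11 and Tlr7 the highest of the 7 in both libraries of these groups. In DC2 cells Tlr7 and Tlr13 averaged 21.4 and 18.8 in untreated and 17.9 and 20.5 in TLI libraries, and their order changed between the 2 untreated pools. These 2 receptor groups were put together after their values were seen, and the shares are a description with no test.

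**Figure D2:**
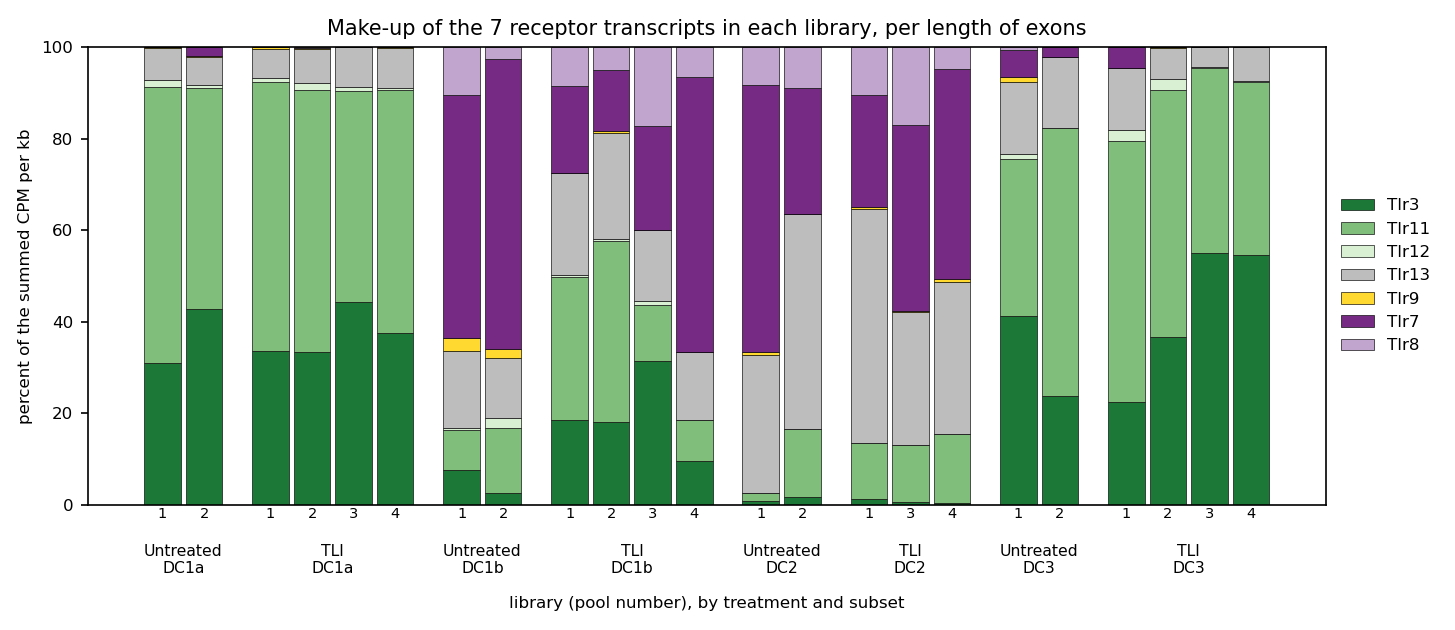
Stacked bars give, for each of the 23 libraries, the percent of the summed CPM per kb of exons that each of the 7 receptors took, with libraries ordered by subset and treatment and numbered by pool. Tlr3, Tlr11 and Tlr12 (greens) fill 91.1% or more of every DC1a bar, and Tlr7 and Tlr8 (purples) no more than 6.51% of any DC1a or DC3 bar.

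Differences between subsets were tested by the quasi-likelihood F test of edgeR, with Benjamini-Hochberg adjustment over all genes, in a single fit of the 23 libraries with a term for batch, at an adjusted p under 0.05. In untreated mice 2 of the 8 genes fell in DC2 versus DC1a cells, compared with 1.91% of the 19597 genes tested that changed in either direction, and 1 of 8 rose in DC3 versus DC2 cells (all genes 0.837%). None of the 8 passed in untreated DC1b versus DC1a (0.837% of all genes), DC3 versus DC1a (0.184%), DC2 versus DC1b (0.398%) or DC3 versus DC1b cells (0.393%) by edgeR. Here 4, 1, 2 and 2 genes had an unadjusted p under 0.05 and DESeq2's Wald test called 4, 0, 1 and 0. The percentages in this paragraph are of edgeR's calls. DESeq2 called more pairs over all genes, so they are not the shares for its counts or for unadjusted p. In TLI mice 2 of 8 passed in DC1b versus DC1a (1 higher and 1 lower, all genes 1.42%), 3 in DC2 versus DC1a (1 higher and 2 lower, 3.4%), 1 in DC2 versus DC1b (lower, 0.214%), 1 in DC3 versus DC1b (lower, 1.11%) and 3 in DC3 versus DC2 cells (2 higher and 1 lower, 1.37%). None of the 8 passed in TLI DC3 versus DC1a cells by edgeR (all genes 0.75%), with 2 at an unadjusted p under 0.05 and 0 by DESeq2. Over both treatments these were 13 calls, of Tlr3, Tlr7, Tlr8 and Tlr11, and each kept its direction in all of its alternative fits. Without TLI DC2 pool 3, the library low in Sirpa, the calls of Tlr11 and Tlr8 in TLI DC3 versus DC2 cells were lost (adjusted p = 0.110 and 0.0605) and the other 11 were not. The comparisons share libraries, so the calls are not independent of each other.

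**Figure D3:**
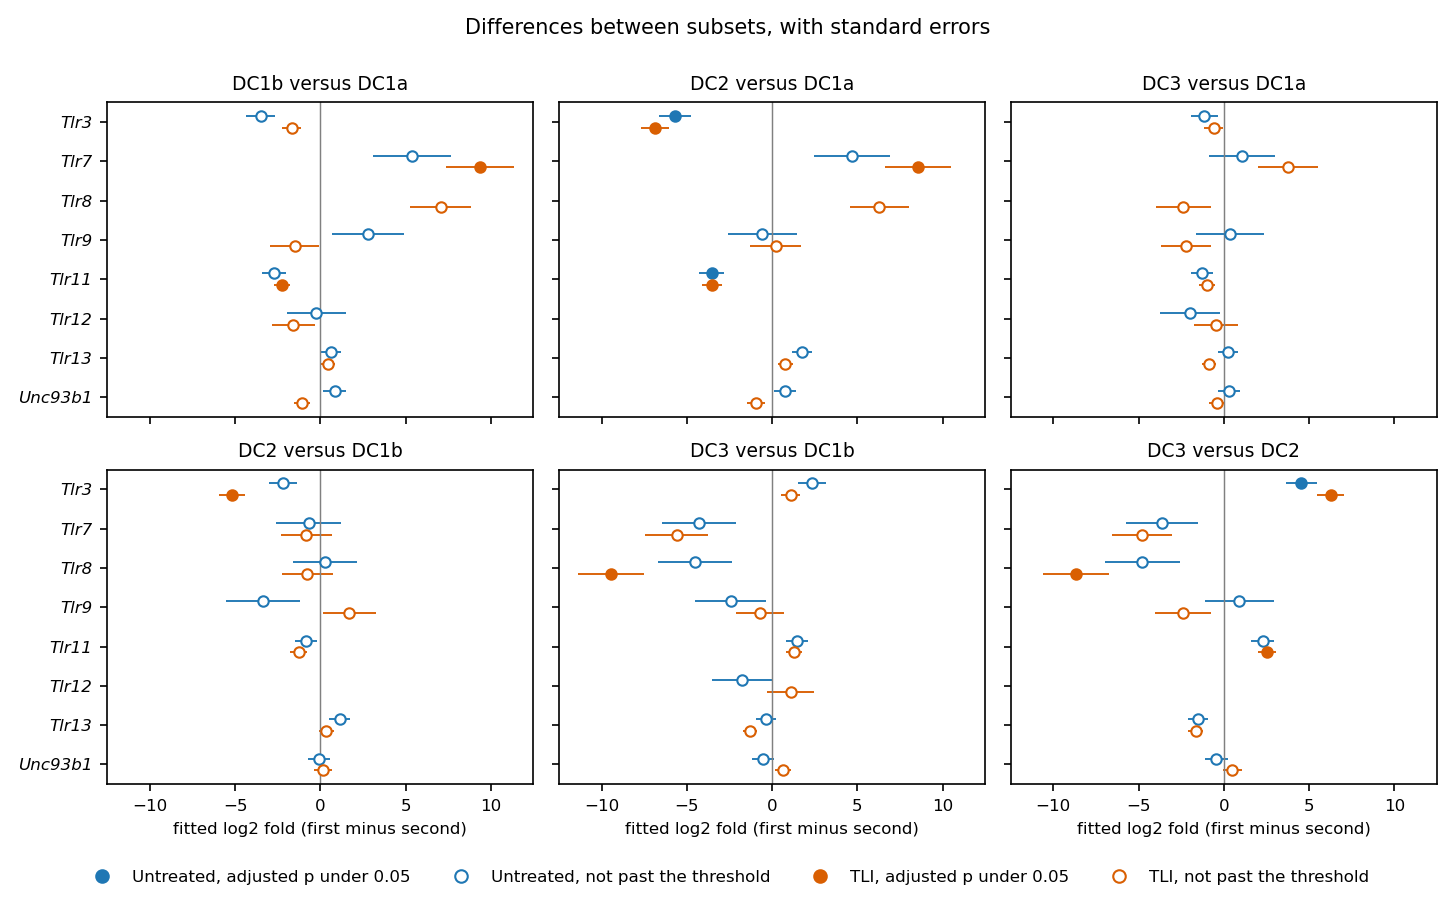
Points give the fitted log2 fold of each gene for the 6 pairs of subsets (first subset minus second) and bars its standard error, untreated in blue and TLI in orange, with filled points past the threshold. Genes at the floor in all libraries of either group are left out, and the filled points are the 13 calls of Tlr3, Tlr7, Tlr8 and Tlr11.

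Tlr3, the receptor for double-stranded RNA, lies on chromosome 8 from 45395665 to 45411080 of GRCm38 (minus strand, 4 coding exons) and was highest in DC1a and DC3 cells. It stood at 121 and 161 CPM in untreated DC1a cells and at 105 and 48.4 CPM in untreated DC3 cells. Untreated DC1b cells had 21.5 and 9.27 CPM and untreated DC2 cells 2.24 and 4.10 CPM. The 4 untreated groups did not overlap. In DC2 cells Tlr3 was 44.5-fold lower than in DC1a cells by the ratio of means (fitted log2 fold -5.69 ± 0.96, adjusted p = 0.00396, edgeR, Benjamini-Hochberg adjusted), and in DC3 cells it was 24.3-fold higher than in DC2 cells (4.54 ± 0.91, adjusted p = 0.0224). No pair of neighbours in the order DC1a, DC3, DC1b and DC2 was past the threshold, with adjusted p of 0.756, 0.408 and 0.431 in turn.

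The TLI libraries kept the same order of means for Tlr3. TLI DC1a cells had 107, 219, 303 and 303 CPM, TLI DC3 cells 72.7, 157, 277 and 239 CPM and TLI DC1b cells 54.9, 45.2, 158 and 52.9 CPM. In TLI DC2 cells only 4.72, 1.05 and 1.00 CPM were counted, below every library of the other subsets. Tlr3 fell 103-fold in DC2 versus DC1a cells (log2 fold -6.85 ± 0.82, adjusted p = 8.33e-05, edgeR, Benjamini-Hochberg adjusted) and 34.4-fold in DC2 versus DC1b cells (-5.16 ± 0.76, adjusted p = 0.00530). It rose 82.6-fold in DC3 versus DC2 cells (6.27 ± 0.80, adjusted p = 3.95e-04). Without TLI DC2 pool 1, which had the most Tlr3 of its group, the ratios were 227, 75.6 and 182, and without TLI DC1b pool 3 the second was 22.6. The first of these calls held in all 32 alternative fits, with adjusted p of 9.69e-26 to 0.0318, within batch 1 (0.0318) and within batch 2 (0.00711), and the other 2 were lost only within batch 1 (0.387 and 0.0940), which holds 1 TLI DC2 library. Without the TLI DC1b library of pool 4 the DC2 versus DC1b difference stood at an adjusted p of 0.00736. Of the untreated calls, DC2 versus DC1a was lost without either DC2 library (adjusted p from 0.0565 to 0.0818), and DC3 versus DC2 was lost without either DC2 library or DC3 pool 1 (from 0.120 to 0.230, with a ratio of 15.3 without the last) and with the pool as a block (0.0566). The DC1b versus DC1a difference was not past edgeR's threshold in either treatment (adjusted p = 0.0742 and 0.190), but was past it in both without TLI DC2 pool 1 (0.00608 and 0.0445), in both by DESeq2 (9.29e-04 and 0.0391) and in untreated mice with no filter on low counts (0.0136). Exons of Gm45542 overlap those of Tlr3 on the opposite strand, and whether strand was used in counting is not given, so a share of the Tlr3 counts may belong to that gene.

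**Figure D4:**
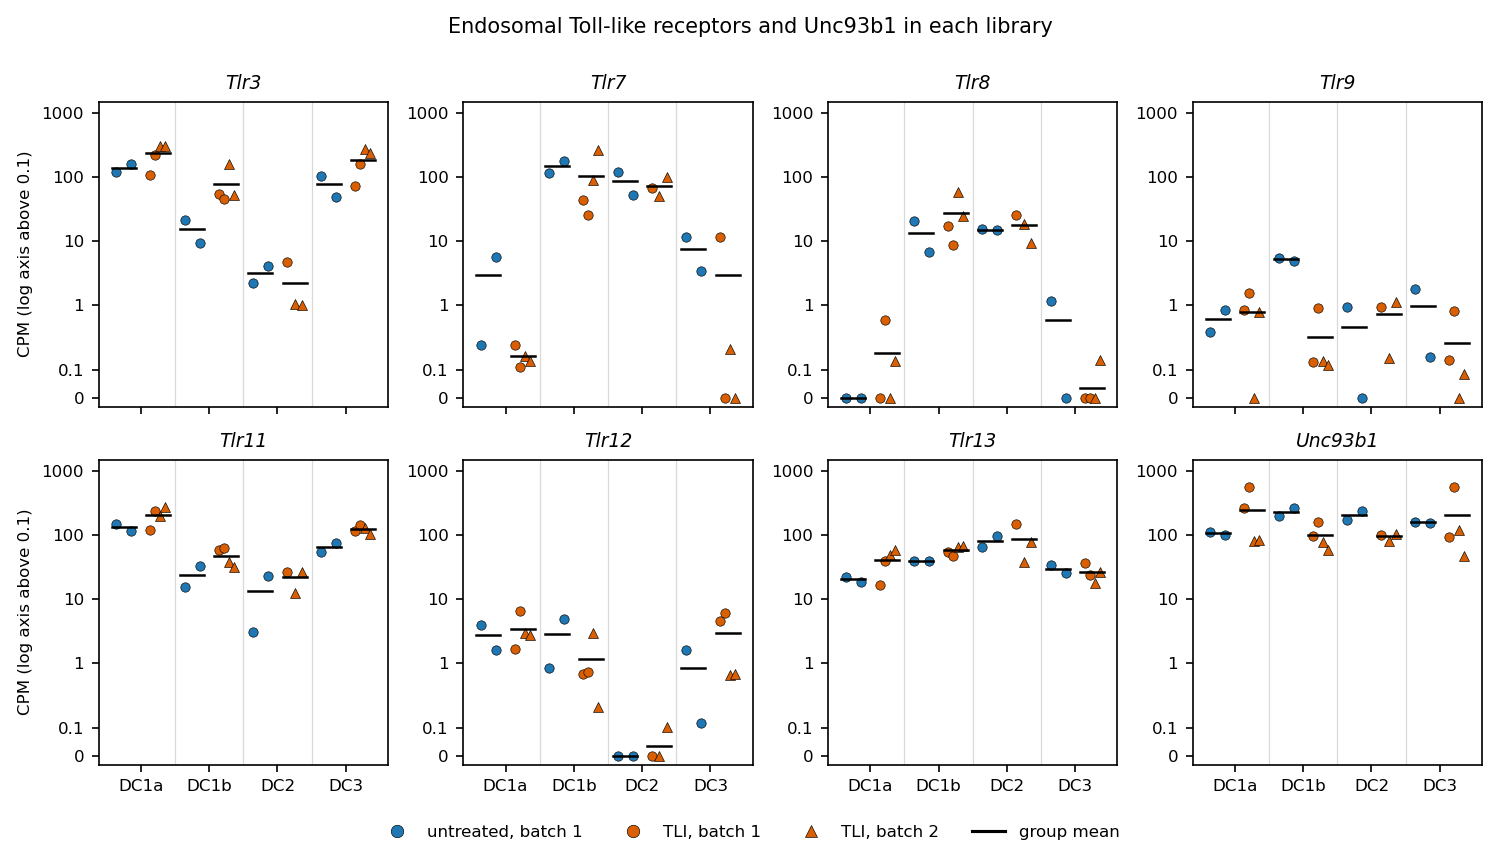
Each panel plots the CPM of a gene (log axis above 0.1, linear below) in the 23 libraries by subset, with untreated libraries in blue, TLI libraries in orange (circles batch 1, triangles batch 2) and group means as black lines. Tlr3 and Tlr11 are high in DC1a and DC3 cells, Tlr7 and Tlr8 in DC1b and DC2 cells, and Tlr9 stays at or below 5.41 CPM throughout.

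Tlr11 and Tlr12, the receptors for profilin, followed Tlr3 in having their lowest means in DC2 cells. Tlr11 lies on chromosome 14 from 50357914 to 50363663 (plus strand, 2 coding exons). It was at 148 and 114 CPM in untreated DC1a cells, at 55.0 and 74.8 CPM in DC3 cells, at 15.4 and 32.9 CPM in DC1b cells and at 3.09 and 23.3 CPM in DC2 cells. DC1b and DC2 libraries overlapped, whereas both DC1a libraries lay above the rest. The TLI libraries had 118, 235, 198 and 269 CPM in DC1a cells, 117, 146, 128 and 105 CPM in DC3 cells, 58.2, 62.3, 38.5 and 31.3 CPM in DC1b cells and 26.9, 12.6 and 26.7 CPM in DC2 cells. TLI DC1a and DC3 cells overlapped, and all of their libraries lay above all TLI DC1b and DC2 libraries.

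Tlr11 fell 9.93-fold in untreated DC2 versus DC1a cells (log2 fold -3.54 ± 0.72, adjusted p = 0.0137, edgeR, Benjamini-Hochberg adjusted) and 9.29-fold in the same TLI comparison (-3.53 ± 0.57, adjusted p = 0.00152). It also fell 4.31-fold in TLI DC1b versus DC1a cells (-2.25 ± 0.48, adjusted p = 0.0229) and rose 5.60-fold in TLI DC3 versus DC2 cells (2.54 ± 0.54, adjusted p = 0.0230). Without untreated DC2 pool 1 the first ratio was 5.62 and without pool 2 it was 42.4. Across the alternatives the adjusted p of these 4 calls ran over 1.37e-05 to 0.119, 5.77e-10 to 0.389, 1.04e-04 to 0.652 and 3.65e-05 to 0.617. The TLI DC2 versus DC1a call was lost only within batch 1 (0.389), and the untreated call was lost without either DC1a library or DC2 pool 1 (from 0.0523 to 0.0977) and when the 8 untreated libraries were fitted alone (0.119). The DC1b versus DC1a call was lost without any of DC1a pools 2 to 4 or DC1b pools 2 to 4 (from 0.0526 to 0.0908), at 0.0908 without DC1b pool 4, and within batch 1 (0.652) and batch 2 (0.0616). Leaving out untreated DC2 pool 2 brought the untreated DC3 versus DC2 difference past the threshold (0.0145), and leaving out either untreated DC2 library did so for untreated DC1b versus DC1a cells (from 0.0194 to 0.0195). The TLI DC3 versus DC2 call was lost without any DC2 library or DC3 pool 3 (from 0.0577 to 0.110) and within batch 1 (0.617) and batch 2 (0.0968).

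Tlr12, on chromosome 4 from 128615443 to 128618619 (minus strand, 1 coding exon), was scarce in every subset. Untreated DC1a cells had 3.94 and 1.62 CPM, DC1b cells 0.848 and 4.84 CPM and DC3 cells 1.59 and 0.118 CPM, while both untreated DC2 libraries had a count of 0. TLI DC1a cells had 1.65, 6.51, 3.00 and 2.77 CPM, DC1b cells 0.693, 0.733, 3.02 and 0.208 CPM and DC3 cells 4.55, 6.20, 0.668 and 0.683 CPM, and the TLI DC2 libraries were at the floor, with 0, 0 and 0.103 CPM. DC2 cells thus had the lowest mean in both treatments. In untreated mice DC3 pool 2, with 3 counts, was also at the floor, and DC3 versus DC2 cells was not past the threshold (adjusted p = 0.217, edgeR). Against the DC2 floor, Tlr12 was at least 20.0-fold higher in untreated and at least 32.5-fold higher in TLI DC1a cells, yet neither comparison was past edgeR's threshold (adjusted p = 0.0805 and 0.0561, edgeR, Benjamini-Hochberg adjusted). The TLI comparison was past it without TLI DC1b pool 3 or TLI DC2 pool 4 (from 0.0350 to 0.0448), and DESeq2's Wald test called all 6 comparisons of Tlr12 with DC2 cells.

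The sequence upstream of the start is shown for Tlr11 and Tlr12, which had their lowest means in the same subset. It is shown further on for Tlr8, which had the reverse pattern. RefSeq windows on GRCm38.p6, from 250 bases before to 50 bases after the start, were at hand for 6 of the 8 genes. In all, 4 motifs were searched on both strands in these windows and in those of all genes. Capitals mark matches, and each stretch holds the 250 bases before the start, 5′ to 3′ in the direction of the gene.

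Tlr11: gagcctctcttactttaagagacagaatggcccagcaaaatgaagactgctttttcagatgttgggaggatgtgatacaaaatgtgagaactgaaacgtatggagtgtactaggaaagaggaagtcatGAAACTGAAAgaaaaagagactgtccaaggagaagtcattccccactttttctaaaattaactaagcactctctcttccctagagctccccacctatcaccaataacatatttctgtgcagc
Tlr12: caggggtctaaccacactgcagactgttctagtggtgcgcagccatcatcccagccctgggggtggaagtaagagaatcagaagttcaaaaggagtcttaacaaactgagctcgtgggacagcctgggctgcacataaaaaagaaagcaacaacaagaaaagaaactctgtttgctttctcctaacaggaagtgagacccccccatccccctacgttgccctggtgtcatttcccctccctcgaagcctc

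The Tlr11 stretch lies at chr14:50357664-50357913 (plus strand) and that of Tlr12 at chr4:128618620-128618869 (minus strand). Tlr11 held a pair of interferon regulatory factor half-sites (GAAA and GAAA with 2 bases between them) at position -122 from the start, a motif found in 3.44% of the 32851 promoter windows. The composite ETS and IRF motif (GGAA and GAAA with 2 bases between them), which can overlap the former by its GAAA, was in none of the 6 windows and in 2.72% of all. The windows of Tlr3, Tlr12 and Tlr13 held none of the 4 motifs, which says only that these letters are not in these windows. A match is a description of the letters and not of binding.

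Tlr7 and Tlr8, the RNA receptors that are neighbours on the X chromosome, had the reverse pattern and were high in DC1b and DC2 cells. Tlr7 lies on chromosome X from 167304929 to 167330558 and Tlr8 on chromosome X from 167242696 to 167264329, both on the minus strand with 2 coding exons and with 40599 bases between them. Tlr7 was at 117 and 181 CPM in untreated DC1b and 122 and 53.3 CPM in untreated DC2 cells. Untreated DC3 cells had 11.7 and 3.45 CPM and untreated DC1a cells 0.244 and 5.67 CPM. DC1b and DC2 libraries overlapped, as did DC3 and DC1a libraries, and the former pair lay above the latter. The untreated DC1a duplicates stood far apart, and no untreated comparison of Tlr7 was past the threshold (adjusted p = 0.413 for DC1b versus DC1a and 0.383 for DC2 versus DC1a cells, edgeR, Benjamini-Hochberg adjusted). DESeq2's Wald test called the first of these (0.0476).

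In TLI mice Tlr7 was at 44.1, 25.9, 89.6 and 260.1 CPM in DC1b cells and at 67.3, 51.0 and 101 CPM in DC2 cells. TLI DC1a cells had 0.246, 0.110, 0.162 and 0.136 CPM, from 3 to 7 counts per library, and TLI DC3 cells had 11.5, 0, 0.211 and 0 CPM. The DC3 library of pool 1 was thus far above the other 3, of which 2 had a count of 0. Compared with DC1a cells, Tlr7 was 641-fold higher in DC1b cells (log2 fold 9.36 ± 1.99, adjusted p = 0.0212, edgeR, Benjamini-Hochberg adjusted) and 447-fold higher in DC2 cells (8.54 ± 1.94, adjusted p = 0.0198). Their adjusted p ran over 3.30e-10 to 0.437 and 2.27e-07 to 0.269 in the alternatives. Both calls were lost without any 1 of the 4 TLI DC1a libraries (from 0.0754 to 0.0975 and from 0.0605 to 0.0745), within batch 1 (0.437 and 0.269) and within batch 2 (0.0581 and 0.0556), and the first was also lost when the 15 TLI libraries were fitted alone (0.0503). Without DC1b pool 4, the library with the highest Tlr7, the DC1b versus DC1a ratio was 325 and the call remained (0.0447). Tlr7 in DC3 versus DC1b and DC3 versus DC2 cells was not past the threshold (adjusted p = 0.205 and 0.247), and both were past it without DC3 pool 1 (0.00130 and 0.00158) and by DESeq2 (7.19e-04 and 0.0143), the first also with no filter (0.0281).

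Tlr8 was at 20.6 and 6.80 CPM in untreated DC1b cells and at 15.3 and 15.1 CPM in untreated DC2 cells, with 1.18 and 0 CPM in DC3 cells and a count of 0 in both DC1a libraries. In TLI mice DC1b cells had 17.2, 8.76, 59.5 and 25.0 CPM, DC2 cells 25.6, 18.8 and 9.34 CPM, DC1a cells 0, 0.588, 0 and 0.136 CPM and DC3 cells 0, 0, 0 and 0.142 CPM. In both treatments all DC1b and DC2 libraries lay above all DC1a and DC3 libraries. The 2 TLI comparisons with DC3 cells were past the threshold, at adjusted p = 0.0241 against DC1b and 0.0347 against DC2 cells (edgeR, Benjamini-Hochberg adjusted). Since the 4 TLI DC3 libraries held 5 counts in all, no fold is given. Both were lost with the pool as a block (0.0502 and 0.0622), within batch 1 (0.452 and 0.327) and within batch 2 (0.228 and 0.288). The first was lost without DC1b pool 3 or any of DC3 pools 1 to 3 (from 0.0587 to 0.0929) and held without DC1b pool 4 (0.0414), and the second was lost without DC2 pools 1 or 3 or any of DC3 pools 1 to 3 (from 0.0605 to 0.108). Against the DC1a floor, untreated DC1b cells had at least 124-fold and DC2 cells at least 138-fold higher Tlr8, which missed edgeR's threshold (adjusted p = 0.132 and 0.0805), although both passed with no filter on low counts (0.0374 and 0.0244) and by DESeq2 (3.28e-04 and 1.40e-04), and the second without TLI DC1a pool 2 (0.0493). The TLI comparisons with DC1a cells missed it (adjusted p = 0.0672 for DC1b and 0.0579 for DC2 cells) and passed without TLI DC1a pool 2 or either untreated DC3 library (from 0.0362 to 0.0445 and from 0.0273 to 0.0429), with no filter (0.00797 and 0.0140) and by DESeq2 (1.67e-05 and 5.25e-04).

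The Tlr8 window held a gamma-activated sequence (TTCNNNGAA), a motif of STAT factors found in 8.3% of all windows, at position -106. Its stretch of 250 bases before the start lies at chrX:167264330-167264579 (minus strand), with the match in capitals.

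Tlr8: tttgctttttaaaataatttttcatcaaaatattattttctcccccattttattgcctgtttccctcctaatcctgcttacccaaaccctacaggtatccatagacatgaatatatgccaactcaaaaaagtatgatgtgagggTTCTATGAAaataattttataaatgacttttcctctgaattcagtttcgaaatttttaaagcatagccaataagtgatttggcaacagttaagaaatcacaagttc

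Markers of other cells stood beside these levels. In untreated mice the subsets with high Tlr7 and Tlr8 had the highest sums of monocyte and macrophage markers. These were 3549.9 to 5685 CPM in untreated DC1b, 5349 to 5654 CPM in DC2 and 783 to 819 CPM in DC1a cells. Most of each sum was Lyz2, at 1929 and 3169 CPM in untreated DC1b and 5377 and 4790 CPM in DC2 cells. Ly6c2 added 1480 and 2347.5 CPM in untreated DC1b cells. Of the other markers, Csf1r was higher in untreated DC1b (49.4 and 77.7 CPM) than DC1a cells (8.51 and 1.12 CPM), as was Adgre1. The other markers did not all go this way. Cd14 overlapped, at 26.7 and 59.7 CPM in untreated DC1b and 34.2 and 52.8 CPM in untreated DC1a cells. Mertk overlapped as well. Fcgr1 alone was at the floor in both untreated DC1b libraries. The sums therefore rest mainly on Lyz2, and in untreated DC1b cells also on Ly6c2, and are not a measure of such cells. In untreated DC2 cells Ly6c2 was at 19.6 and 21.4 CPM. Plasmacytoid DC markers were high in untreated DC1b cells alone, and Siglech, which defines these cells, was at 1159.5 and 1858 CPM there and at 30.03, 31.2, 9.50 and 0.268 CPM in TLI DC1b cells. The TLI DC1b library with the least Siglech, pool 4, had the most Tlr7. In TLI DC1b pools 1 to 4 the monocyte and macrophage sums were 20434, 25703, 8855 and 7495 CPM. Tlr7 in these libraries was at 44.1, 25.9, 89.6 and 260.1 CPM and Tlr8 at 17.2, 8.76, 59.5 and 25.0 CPM. Pools 1 and 2 (batch 1), with the higher sums, had less Tlr7 and Tlr8 than pools 3 and 4 (batch 2). Most of these sums was Lyz2, at 18205, 23476, 7986 and 6898 CPM, and genes of the list differed in direction. Csf1r (143, 120.5, 394 and 206 CPM) and Adgre1 (92.7, 55.8, 144 and 118 CPM) were higher in pools 3 and 4. Ly6c2, Fcgr1, Cd14, C1qa, C1qb and Vcam1 were, like Lyz2, higher in pools 1 and 2, and Mertk was mixed. The part of monocytes, macrophages, neutrophils and plasmacytoid DC in the levels of Tlr7, Tlr8 and Tlr9 was not tested.

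Tlr13, the receptor for bacterial ribosomal RNA, was present in all subsets. It lies on chromosome X from 106143204 to 106160493 (plus strand, 2 coding exons). Untreated DC2 cells had 66.2 and 95.9 CPM, DC1b cells 39.1 and 39.3 CPM, DC3 cells 33.6 and 25.8 CPM and DC1a cells 22.4 and 18.8 CPM. These 4 untreated groups did not overlap. TLI DC2 cells had 148, 38.4 and 77.6 CPM, DC1b cells 54.7, 47.7, 64.0 and 67.7 CPM, DC1a cells 16.8, 39.3, 49.4 and 57.8 CPM and DC3 cells 36.6, 23.7, 17.6 and 26.7 CPM, and here DC1a overlapped each of the others. The highest mean was 3.93 times the lowest in untreated mice (DC2 and DC1a, log2 fold 1.76 ± 0.60, adjusted p = 0.179) and 3.37 times in TLI mice (DC2 and DC3, log2 fold -1.65 ± 0.45 for DC3 minus DC2, adjusted p = 0.0945, edgeR, Benjamini-Hochberg adjusted). No comparison of Tlr13 was past the threshold by edgeR with all libraries, although the second passed without TLI DC2 pool 3 (0.0330). DESeq2's Wald test called both (0.0285 and 0.00875) and TLI DC3 versus DC1b cells (0.0380).

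Tlr9, the receptor for CpG DNA on chromosome 9 from 106222598 to 106226883 (plus strand, 2 coding exons), was near the limit of detection outside untreated DC1b cells. There it had 5.41 and 4.997 CPM, in the same libraries that were high in plasmacytoid DC markers. Untreated DC1a, DC2 and DC3 cells had 0.383 and 0.849, 0.936 and 0, and 1.77 and 0.157 CPM. The 15 TLI libraries ran from 0 to 1.54 CPM, and 3 of the 4 TLI DC3 libraries were at the floor. Both untreated DC1b libraries therefore lay above the other 21. The Tlr9 promoter window held an AP-1 motif (TGANTCA, in 7.81% of all windows) at position -58. None of the comparisons was past the threshold (adjusted p = 0.676 for untreated DC1b versus DC1a and 0.501 for TLI versus untreated DC1b cells, edgeR, Benjamini-Hochberg adjusted).

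Unc93b1, the carrier of these receptors, lies on chromosome 19 from 3935186 to 3949340 (plus strand, 11 coding exons) and was expressed in every library. Untreated cells had 112 and 99.97 CPM in DC1a, 197 and 265 CPM in DC1b, 172 and 239 CPM in DC2 and 159 and 156 CPM in DC3 cells. TLI cells had 267, 559, 80.6 and 83.8 CPM in DC1a, 97.9, 160.4, 77.1 and 58.3 CPM in DC1b, 101, 80.4 and 105 CPM in DC2 and 94.7, 567, 118 and 46.5 CPM in DC3 cells. The TLI pool 2 libraries of DC1a and DC3 cells were the highest of all 23, and TLI DC1b pool 2 was the highest of its group. The group means lay between 95.6 and 248 CPM, and no subset comparison was past the threshold. In the untreated mice the difference between DC1b and DC1a cells was 0.84 ± 0.66 (log2 fold, adjusted p = 0.690, edgeR, Benjamini-Hochberg adjusted). In untreated DC2 cells, where Tlr3 averaged 0.609 CPM per kb, Unc93b1 averaged 67.9 CPM per kb.

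None of the 8 genes was past the threshold between TLI and untreated mice in any subset by edgeR, against 0.0102% of all genes tested in DC1a, 0.413% in DC1b, 0.0612% in DC2 and 0.0255% in DC3 cells. Of the 32 pairs of gene and subset, 3 had an unadjusted p under 0.05. These were Tlr3 in DC1b cells (log2 fold 2.36 ± 0.79, adjusted p = 0.237), Tlr11 in DC1b cells (1.36 ± 0.61, adjusted p = 0.383) and Unc93b1 in DC1a cells (1.68 ± 0.63, adjusted p = 0.423). The 4 TLI DC1b libraries lay above both untreated ones for Tlr3, by 5.05-fold in the means, and DESeq2's Wald test called this 1 pair of the 32. Without pool 4 the edgeR value was 2.49 ± 0.81 (adjusted p = 0.255), and that of Tlr11 in DC1b cells was 1.46 ± 0.63 (adjusted p = 0.379). limma with voom weights called 0 of the 32 and had 4 at an unadjusted p under 0.05. DESeq2 and limma voom called more pairs than edgeR over all genes, so edgeR's shares are not theirs. Tlr11 had fitted differences above 0 in all 4 subsets, from 0.89 ± 0.62 in DC1a to 1.36 ± 0.61 in DC1b cells on the log2 scale, with adjusted p of at least 0.383 and overlapping libraries in 3 subsets. In DC3 cells alone the TLI libraries lay above the untreated ones for Tlr11.

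For Unc93b1 the fitted differences in DC1b and DC2 cells were nearer to 0 than those of the means. Its mean CPM was 2.35-fold lower in TLI than in untreated DC1b cells and 2.15-fold lower in DC2 cells, with no overlap of libraries in either, whereas the fitted log2 folds were -0.24 ± 0.61 and 0.01 ± 0.67. The fit has a single batch term for all subsets, to which all TLI libraries contribute, the high pool 2 libraries of DC1a and DC3 cells included. Without that term the values were -0.93 ± 0.75 and -1.09 ± 0.80, within batch 1 they were -0.54 ± 0.61 and -0.96 ± 0.77, and without both pool 2 libraries they were -0.62 ± 0.39 and -0.47 ± 0.44. The DC1a difference of 1.68 ± 0.63 went to 0.85 ± 0.43 without the same libraries. None of these values was past the threshold, with edgeR's lowest adjusted p among them at 0.423 after Benjamini-Hochberg adjustment. Whether the TLI minus untreated difference varied among the 4 subsets was tested as an interaction, which called none of the 8 genes in edgeR and had none at an unadjusted p under 0.05, against 0.0357% of all genes. The lowest adjusted p was 0.651, for Tlr8. The design gave no untreated library in batch 2, so an effect of TLI that differs by batch cannot be told apart from the batch.

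**Figure D5:**
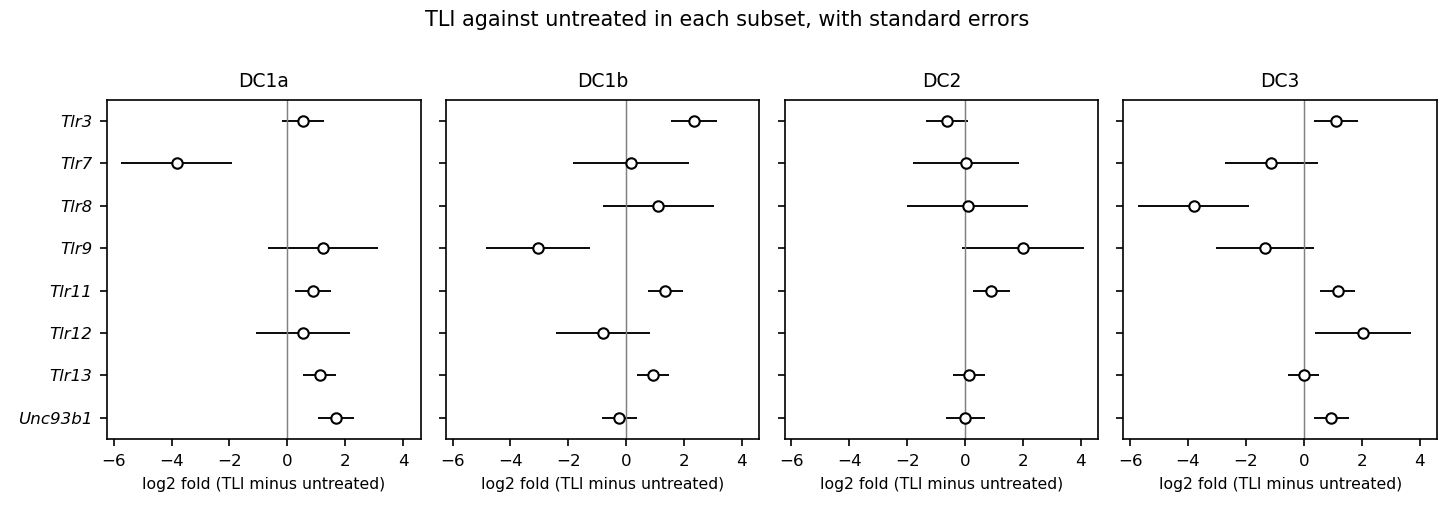
Points give the fitted log2 fold of TLI minus untreated for each gene in the 4 subsets and bars its standard error, with open points for differences that were not past the threshold. All points are open, and genes at the floor in all libraries of either group are left out.

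The wider pathway was described with 6 lists of genes. Of all pairs of gene and comparison, 0.76% between untreated subsets, 1.38% between TLI subsets and 0.128% between TLI and untreated mice were past the threshold by edgeR. These are not the shares for counts by DESeq2, limma voom or unadjusted p. Of the chaperones and trafficking factors, 8 of 10 genes were tested, and Rab7b, Slc15a4 and Hsp90b1 passed the threshold between untreated subsets, in 4 of 48 pairs of gene and comparison. Rab7b, a small GTPase of late endosomes and lysosomes, was, like Tlr3, lowest in DC2 cells, with 116 to 134 CPM in untreated DC1a, 196 to 209 CPM in DC3, 8.35 to 28.2 CPM in DC1b and 0 to 2.03 CPM in DC2 cells (DC3 versus DC2 log2 fold 7.53 ± 1.25, adjusted p = 0.00588, edgeR, Benjamini-Hochberg adjusted). It was lower in TLI DC2 than in TLI DC1a cells as well (-5.49 ± 0.92, adjusted p = 0.00210). Slc15a4, a lysosomal transporter needed for TLR7 and TLR9 signalling, was higher in DC1b than in DC1a cells, with 4.08 to 7.45 CPM in untreated DC1a and 82.6 to 138 CPM in untreated DC1b cells (3.98 ± 0.79, adjusted p = 0.0233), and was higher in TLI DC2 than TLI DC1a cells (3.15 ± 0.56, adjusted p = 0.00367). Hsp90b1, the endoplasmic reticulum chaperone gp96, rose in untreated DC3 versus DC2 cells (1.62 ± 0.33, adjusted p = 0.0244). In TLI mice 4 of 48 pairs passed, all of Rab7b or Slc15a4. The symbol Tasl was not matched, and 1 more gene, Lamp5, did not pass the filter.

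Among 9 endosomal proteases and nucleases, Ctss and Ctsb, the cathepsins S and B, were called in comparisons of DC1b or DC2 cells with DC3 or DC1a cells, and in each were higher in DC1b or DC2 cells. Ctss was at 1718 to 3261 CPM in TLI DC1b and 589 to 1101 CPM in TLI DC3 cells (DC3 versus DC1b log2 fold -1.66 ± 0.18, adjusted p = 1.01e-04, edgeR, Benjamini-Hochberg adjusted), and it fell in untreated DC3 versus DC2 cells as well (-1.45 ± 0.26, adjusted p = 0.00936). Ctsb fell in DC3 versus DC1b cells of both treatments (untreated -3.11 ± 0.60, adjusted p = 0.0304, TLI -2.13 ± 0.41, adjusted p = 0.0144). Without TLI DC1b pool 4 the TLI DC3 versus DC1b calls of Ctss and Ctsb stood at adjusted p of 5.15e-04 and 0.0316. Rnaset2a and Rnaset2b, near-identical copies of a ribonuclease whose reads may be split between them, fell in TLI DC2 versus DC1a cells (-0.996 ± 0.24, adjusted p = 0.0292 and -1.02 ± 0.25, adjusted p = 0.0309). These made up 4 of 54 pairs in untreated and 7 of 54 in TLI mice. Of 4 interferon regulatory factors, Irf8 passed in 3 of 24 untreated and 2 of 24 TLI pairs. It encodes a factor that DC1 cells need. Irf8 was at 1.63 to 35.4 CPM in untreated DC2 and 875 to 1079 CPM in untreated DC1b cells (DC2 versus DC1b -5.67 ± 0.98, adjusted p = 0.0110, edgeR). These DC1b libraries were those high in plasmacytoid DC markers. Untreated DC1a cells had less Irf8, at 473 to 574 CPM, and TLI DC1b cells had 59.4 to 369 CPM. It was higher in TLI DC3 than TLI DC2 cells (4.23 ± 0.73, adjusted p = 0.00433, edgeR).

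The 14 adaptors and kinases, which act downstream of the receptors, showed 0 of 84 pairs past the threshold between untreated subsets by edgeR, with 8 at an unadjusted p under 0.05 and 3 called by DESeq2. In TLI mice 3 of 84 pairs passed. Ikbkb, a kinase of the NF-kB pathway, and Tab2, which links TRAF6 to TAK1, were higher in TLI DC2 than in TLI DC1a cells (3.05-fold in the means, log2 fold 1.25 ± 0.24, adjusted p = 0.00594, and 3.22-fold, 1.25 ± 0.33, adjusted p = 0.0479, edgeR, Benjamini-Hochberg adjusted). The Tab2 call was lost with the pool as a block (0.0521) and without TLI DC1b pool 4 (0.0549). Of 8 induced cytokine genes 7 were tested, and 4 of 42 untreated and 6 of 42 TLI pairs passed (2 and 4 with the pool as a block). Ccl3, a chemokine for monocytes and T cells, was at 1273 to 1324 CPM in untreated DC2 cells and lower in DC3 cells, at 55.0 to 57.3 CPM (-4.59 ± 1.00, adjusted p = 0.0380) and higher in TLI DC2 than DC1a cells (3.39 ± 0.70, adjusted p = 0.0104). Both Ccl3 calls were lost with the pool as a block (0.0620 and 0.0580). Its relative Ccl4 was lower in untreated DC3 than DC1b cells, at 395 to 432 CPM against 2283 to 3691 CPM (-2.83 ± 0.52, adjusted p = 0.0210). Il12b, a subunit of IL-12, was lower in TLI DC3 than DC1a cells, at 0 to 1.44 CPM against 11.1 to 225 CPM (adjusted p = 0.0140), and Tnf was lower in TLI DC3 than DC2 cells, at 0.808 to 6.54 CPM against 22.4 to 59.5 CPM (-4.24 ± 0.60, adjusted p = 0.00101). Of the 5 Toll-like receptors of the cell surface, Tlr6 alone passed, in 1 of 30 untreated pairs, at 0.353 to 1.00 CPM in DC3 and 22.4 to 56.9 CPM in DC2 cells (-5.92 ± 1.21, adjusted p = 0.0244), a call that was lost with the pool as a block (0.0539). Between TLI subsets 0 of 30 pairs passed by edgeR, with 8 at an unadjusted p under 0.05 and 4 called by DESeq2.

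TLI and untreated mice had no gene of the 6 lists past the threshold by edgeR. At an unadjusted p under 0.05 there were 3 of 32 pairs of chaperones, 8 of 36 of proteases and nucleases, 10 of 56 of adaptors and kinases, 5 of 16 of interferon regulatory factors, 4 of 28 of cytokines and 4 of 20 of surface receptors. DESeq2 called 0, 4, 1, 2, 2 and 3 of these pairs and limma voom 0, 2, 1, 1, 1 and 1. Over all genes both also called many more pairs than edgeR, so these counts are not read as changes of the lists.

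The genes whose log2 CPM was most like that of each member over the 23 libraries are given with Pearson's r as a description, since the libraries share subsets, pools and depth. For Tlr3 they were Gm14597 (0.93), Hebp2 (0.92) and 2310031A07Rik (0.92), and for Tlr11 Hepacam2 (0.92), Ece1 (0.90) and Naaa (0.89). For Tlr12 they were Itm2a (0.86), Cd207 (0.86) and Pdia5 (0.85), of which Cd207 encodes langerin. For Tlr7 they were Ldlrad3 (0.92), Fgd4 (0.90) and Ssh2 (0.90), and for Tlr8 Cd300ld (0.97), Gngt2 (0.94) and Lilra5 (0.94). For Tlr13 they were Sat1 (0.79), Ear2 (0.79) and Abr (0.76), and for Unc93b1 Gm15459 (0.88), Lsp1 (0.84) and Atp5b (0.84). No receptor was among the 3 genes most like another, and Tlr9, with a mean under 1 CPM, was left out. Tlr8, Tlr9 and Tlr12 could not have been among them, since genes with a mean under 10 CPM were not candidates. The highest r between receptors were 0.85 (Tlr3 and Tlr11) and 0.84 (Tlr7 and Tlr8), and the lowest was -0.79 (Tlr7 and Tlr11).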

How the data were processed

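RNA of 4 spleen DC subsets sorted from untreated and TLI pools was copied to cDNA with a SMARTseq v4 kit and made into libraries with KAPA HyperPlus. Per the labels, the authors used Trimmomatic, HISAT2, StringTie and DESeq2 with GRCm38, for which the labels give no version. They deposited estimated counts per Ensembl gene from StringTie, made from uniquely mapped reads by the study's methods, whole numbers with no normalization, for 23 libraries in 1 table. This derivation from coverage can differ from a count of reads, and strand use is not given.

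From these counts, CPM were computed on library totals, and symbols and exon lengths were taken from GENCODE M21 (GRCm38). Genes were filtered with filterByExpr over the 8 groups (a minimum of 10 counts), scaled by TMM and fitted with edgeR 4.0.16 (R 4.3.3) in a quasi-likelihood model with group and batch terms, which left 14 residual degrees of freedom and a common biological coefficient of variation of 1.08. All 16 comparisons and the interaction were adjusted by Benjamini-Hochberg over 19597 genes, with a threshold of 0.05. DESeq2 1.42.0, limma 3.58.1 with voom, the DESeq2 size factors, no filter, no batch term, parts of the libraries alone, the pool as a block, and each library left out were alternatives. The function that gives the statistics was tested on simulated data. Calculations outside R used Python 3.11.15, numpy 2.4.6 and pandas 2.3.3.

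The pairing of libraries came from the pool number in the labels, which was read as cells of the same mice. For libraries of the same pool, deviations from the mean of each group within its batch correlated over genes from -0.0153 to 0.135. The median was 0.00815 over 30 pairs. Each of these means is of a pair of libraries, which deviate from it by equal and opposite amounts. Every value therefore occurs in both pools of a treatment and batch, and the 30 pairs are not independent values. Since nothing says that pools were prepared separately beyond their number, p-values measure the spread between these pools.

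The 8 genes and all lists were chosen with earlier results of these data known. All 8 members were named, with up to 4 genes of each pathway list with the largest fitted change past the threshold and a mean of at least 5 CPM in each family of comparisons, and the 3 genes of at least 10 CPM most like each member of at least 1 CPM. The marker genes Cd8a, Sirpa and Siglech stand beside these as checks of the gates.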

Additional observations from a re-analysis of the deposited data

Results flagged for a closer look

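Of 24 groups of 4 libraries (8 genes in TLI DC1a, DC1b and DC3 cells), 5 had a highest library whose gap to the next, divided by the range of the group, was above Dixon's critical value for 4 values. For normally distributed values about 1 group in 20 exceeds this critical value at either end. That rate need not hold for CPM or for the highest library alone, and the groups share libraries. Tlr3 was at 158 CPM in TLI DC1b pool 3, above 54.9, 45.2 and 52.9 CPM in the others. Tlr7 was at 11.5 CPM in TLI DC3 pool 1, where the other 3 libraries had no more than 0.211 CPM. Tlr8 was at 0.142 CPM in TLI DC3 pool 4, which is 5 counts where the others had 0, so that any count would have exceeded the critical value there. Tlr9 was at 0.916 CPM in TLI DC1b pool 2, which was at or below 0.138 CPM in the others. Unc93b1 was at 567 CPM in TLI DC3 pool 2, compared with 46.5 to 118 CPM in the others. The TLI DC1a library of the same pool had 559 CPM of Unc93b1 and was not past the critical value.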

How the results depend on the processing

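The 13 calls of Tlr3, Tlr7, Tlr8 and Tlr11 kept their direction in all 410 alternative values and stayed past the threshold in 351, and 1 of them, Tlr3 in TLI DC2 versus DC1a cells, was never lost. Calls of edgeR and DESeq2 differed most. DESeq2's Wald test called 13 pairs of member and comparison between untreated subsets (edgeR 3), 20 between TLI subsets (10) and 1 between TLI and untreated mice (0), and 7485, 8833 and 3633 pairs over all genes (894, 1619 and 100). With no filter on low counts there were 6 member pairs between untreated subsets, and over all genes 330 pairs between TLI and untreated mice and 96 genes in the interaction (7). With no batch term the counts over all genes were 308, 912, 28 and, for the interaction, 3. Within batch 1 alone they were 313 between TLI subsets, with 1 member pair, and 15 between TLI and untreated mice, and within batch 2 alone 508 between TLI subsets, with 4 member pairs. limma with voom called 1053 pairs between TLI and untreated mice with the pool as a random block and 1054 without that block. The pool as a fixed replicate block gave 792 pairs and 2 member pairs between untreated subsets, 1317 and 8 between TLI subsets, and 5 genes and 0 members in the interaction, and changed no other call of the 8 genes than the 3 given with the results. In the pathway lists it gave 5, 2 and 0 in place of 4, 4 and 1 untreated pairs of proteases, cytokines and surface receptors, and 2 and 4 in place of 3 and 6 TLI pairs of adaptors and cytokines.

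Leaving out 1 library at a time gave 364 to 1077 pairs and 1 to 4 member pairs between untreated subsets, 1081 to 1643 and 7 to 12 between TLI subsets, 21 to 145 and 0 to 0 between TLI and untreated mice, and 2 to 31 genes and 0 to 0 members in the interaction. Counts moved by over 1.5 times without untreated DC1a pool 1 (364) or 2 (399), DC2 pool 1 (543) or 2 (491) or DC3 pool 2 (584) between untreated subsets, with 1 member pair left without DC2 pool 1, and without untreated DC1b pool 1 (21) or 2 (29) between TLI and untreated mice. The interaction count was 31 without TLI DC2 pool 1, 21 and 13 without TLI DC3 pool 1 or 2, 14 without untreated DC2 pool 2 and 2 to 4 without any of 10 other libraries. Leaving out both TLI pool 2 libraries with high Unc93b1, chosen after seeing the data, gave 1039, 1308, 106 and 6 over all genes and 3, 8, 0 and 0 among the members. It lost the calls of Tlr11 in TLI DC1b versus DC1a and DC3 versus DC2 cells and of Tlr8 in TLI DC3 versus DC1b and DC2 cells. The cause of these changes was not tested. With 2 untreated libraries per subset the untreated comparisons rest on the spread shared by all groups, and Tlr9 and Tlr12 were near the floor in many libraries.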
